A study of Homo sapiens with 6 samples.

Results

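The genes that govern the passage of a cell from G1 into S phase were followed in MDA-MB-453 cells after knockdown of tRF-1-Ser. They were 10 genes picked by name from the count table, which holds 36517 genes: the D-type cyclins CCND1, CCND2 and CCND3, the E-type cyclins CCNE1 and CCNE2, the kinases CDK4 and CDK6, and the CIP/KIP inhibitors CDKN1A, CDKN1B and CDKN1C. MDA-MB-453 is an established human breast cancer cell line of luminal type. The cells of both groups had been transduced with lentivirus, which carried a negative-control hairpin in the control group (n = 3 libraries) and a hairpin against tRF-1-Ser, a small RNA cut from the trailer of a serine tRNA precursor, in the shtRF group (n = 3 libraries). All were labelled day 3. The study describes stable transduced lines, and neither whether the replicates were separate transductions nor whether the cells were a pool or a clone is stated, so p-values measure the spread between these libraries only.

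In G1, growth signals raise the D-type cyclins, which bind CDK4 or CDK6. These kinases begin the phosphorylation of the retinoblastoma protein, E-type cyclins with CDK2 complete it, and E2F factors are then free to turn on the genes of DNA synthesis. INK4 inhibitors hold CDK4 and CDK6 back, whereas the CIP/KIP proteins p21 (CDKN1A), p27 (CDKN1B) and p57 (CDKN1C) hold back CDK2. In luminal breast cancer this step is well known because CCND1 is often amplified and because CDK4 and CDK6 are drug targets.

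The libraries held between 63541413 and 78917459 counts. All 8 luminal markers examined were well expressed, with summed levels of 9660 to 10400 in control and 12200 to 13400 in shtRF, in counts per 1000000 counts of the scaled library (CPM). Of 12 markers of blood, stromal, endothelial and basal cells, 7 had too few reads to be tested. The summed level of the 12 was 32.9 to 39.5 CPM in control and 23.3 to 23.9 CPM in shtRF, and nearly all of it was COL1A1, with a mean of 32.2 CPM in control and 20.9 CPM in shtRF. The basal factor TP63 was at 2.88 CPM and 1.98 CPM. The part of these differences in the results below was not tested. In RNA from a whole culture, fewer cells in a phase of the cycle and less RNA per cell cannot be told apart. tRF-1-Ser itself is not measured by these libraries, so the groups rest on the labels.

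The start regions of members whose level differed between the groups are shown first. CDK4 and CDK6, partners of the same cyclins, moved in opposite directions. Whether the letters of their start regions had a part in this was not tested. RefSeq promoters on GRCh38.p14 matched 6 of the 10 members by symbol, with 9 start sites in all. For the 4 changed members among them, the 250 bases before the start that lies farthest upstream are printed 5′ to 3′ on the strand of the gene. Capitals mark the E-box CACGTG, the sequence known to be bound by MYC with MAX, and the GC box GGGCGG, known to be bound by SP1, both searched on either strand. The windows are chr12:57752311-57752560 (minus strand) for CDK4, chr7:92836574-92836823 (minus strand) for CDK6, chr6:42048689-42048938 (minus strand) for CCND3 and chr6:36678464-36678713 (plus strand) for CDKN1A.
CDK4: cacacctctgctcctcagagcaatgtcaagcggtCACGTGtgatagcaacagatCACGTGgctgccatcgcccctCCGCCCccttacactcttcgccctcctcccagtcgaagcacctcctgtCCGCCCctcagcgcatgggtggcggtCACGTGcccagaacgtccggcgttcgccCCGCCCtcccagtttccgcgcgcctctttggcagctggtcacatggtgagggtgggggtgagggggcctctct
CDK6: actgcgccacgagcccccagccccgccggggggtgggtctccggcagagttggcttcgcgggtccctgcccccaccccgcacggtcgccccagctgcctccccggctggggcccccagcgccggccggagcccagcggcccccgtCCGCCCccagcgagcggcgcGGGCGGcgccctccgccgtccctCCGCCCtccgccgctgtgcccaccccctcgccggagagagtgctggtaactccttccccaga
CCND3: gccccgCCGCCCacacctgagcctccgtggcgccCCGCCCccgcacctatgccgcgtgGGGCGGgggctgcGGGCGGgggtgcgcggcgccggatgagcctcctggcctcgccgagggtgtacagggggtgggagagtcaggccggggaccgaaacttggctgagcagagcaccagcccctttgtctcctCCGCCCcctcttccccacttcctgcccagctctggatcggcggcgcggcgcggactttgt
CDKN1A: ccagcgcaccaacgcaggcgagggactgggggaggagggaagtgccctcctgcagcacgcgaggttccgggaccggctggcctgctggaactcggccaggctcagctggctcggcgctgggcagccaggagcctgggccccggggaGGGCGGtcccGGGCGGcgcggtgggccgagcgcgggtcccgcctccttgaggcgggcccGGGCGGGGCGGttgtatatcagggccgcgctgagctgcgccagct

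The CDK4 window held 3 E-boxes, which began 216, 196 and 101 bases before the start, and 3 GC boxes. None of the other 8 start regions of members held an E-box. CCND1, CCND2, CCNE2 and CDKN1C had no matching start region and were not searched, so CDK4 was the only searched member called lower. Of 35116 RefSeq start regions of the same length, 6.34% held at least 1 E-box. The share with 3 or more, a cut equal to the count in the CDK4 window, was 0.0797%. GC boxes were present in 7 of the 9 member regions and in 42.6% of all regions, and 13.9% of all regions held 3 or more of them. The CDK6 window had 3 of them, the CCND3 window had 5 and the CDKN1A window had 4, of which the last pair shared 1 base. The downstream start of CDK6, not printed, had 0, and the downstream starts of CCND3 had 2 and 0. The windows of CCNE1 and CDKN1B, which are not among the changed members, had 7 and 1. An E2F site, searched as TTTNGCGC on both strands, was in none of the 9 regions and in 1.51% of all regions. These matches describe the letters and not the binding of any factor.

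Of the 10 genes, 8 had enough reads to be tested and 5 of the 8 differed between the groups. CDK6, CCND3 and CDKN1A were higher in shtRF, and CCND1 and CDK4 were lower. CCNE1, CCNE2 and CDKN1B did not pass the threshold, which was an adjusted p under 0.05 in edgeR's quasi-likelihood test. CCND2 and CDKN1C lay under the low-count filter. Among all 19628 tested genes, 39.5% passed the same threshold, 20.6% higher and 18.9% lower in shtRF, so a share of 5 in 8 is to be read against a transcriptome that changed widely. The median absolute log2 fold change was 0.323 over the 8 members and 0.256 over all tested genes. CDK6 was the 1 tested member that passed with a change of more than 2-fold, which 5.77% of all tested genes did (2.66% higher). The groups did not overlap in the 5 members that passed, 3 above control and 2 below, against 48.7% of all tested genes (24.9% above and 23.8% below).

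**Figure D1:**
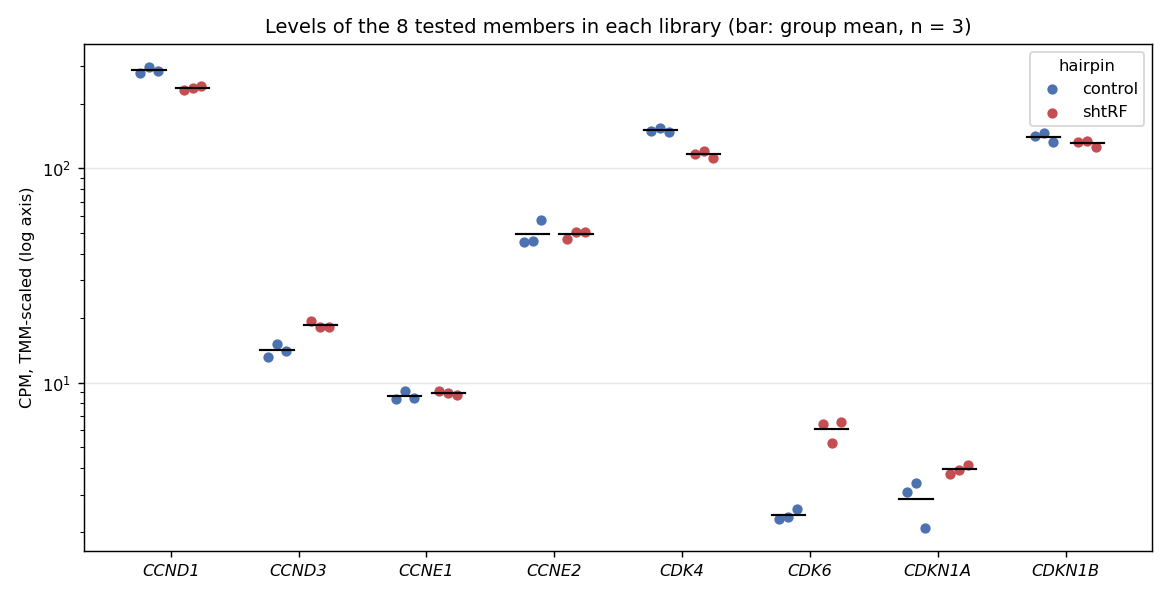
Level of each of the 8 tested members in the 3 control and 3 shtRF libraries, in CPM on a log axis, with the group mean as a bar. CCND1 and CDK4 sit lower in every shtRF library, CDK6, CDKN1A and CCND3 sit higher, and CCNE1, CCNE2 and CDKN1B overlap between the groups.

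Cyclin D1 is the main partner of CDK4 in breast epithelium. CCND1 (chromosome 11, 69641087 to 69654474, plus strand) had 278, 297 and 286 CPM in control and 233, 236 and 243 CPM in shtRF. Every shtRF value lay below every control value. The group means were 287 ± 9.32 and 237 ± 5.18 CPM (SD, n = 3). The log2 fold change (log2FC) was -0.27 ± 0.05 (SE) with an adjusted p of 0.000208 in edgeR's quasi-likelihood test, which is a level 0.827 times that of control with a 95% interval of 0.768 to 0.892. CCND1 was the most abundant member by reads per kilobase and 1000000 reads (RPKM), at 60.5 RPKM in control, above 96.2% of tested genes. Some 10.3% of its exonic sequence is shared with ORAOV1 on the other strand, and since the strand setting of the counting is not given, reads there could be counted for either gene. ORAOV1 had 27.6 ± 2.69 CPM in control and 30.7 ± 1.97 CPM in shtRF, and its part in the CCND1 difference was not tested.

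Cyclin D3 moved the other way. CCND3 (chromosome 6, 41934933 to 42050357, minus strand) had 13.1, 15.2 and 14.1 CPM in control and 19.3, 18.1 and 18.1 CPM in shtRF, again without overlap. The log2FC was 0.39 ± 0.08 (SE) with an adjusted p of 0.000358, a 1.31-fold rise with an interval of 1.17 to 1.47.

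Cyclin D2 was barely detected. CCND2 (chromosome 12, 4273772 to 4305350, plus strand) had 0 counts in each of the 3 control libraries, which allows a level of up to 0.0136 CPM over the group, and 10, 6 and 6 counts in the shtRF libraries. Set against a floor of 3 counts over the control group, it was at least 8.05-fold higher in shtRF, and at least 4.02-fold with counts halved. The bound was 5.29-fold without control replicate 2, 5.13-fold without control replicate 3, and at most 8.89-fold when any 1 of the 6 libraries was left out. It entered a fit without the low-count filter only through its shtRF counts, the group where it was high. The p-value of that fit is therefore not separate support and is not given. These bounds allow for counting error in the control group only and take the shtRF counts as exact. The true fold could lie below them. Both mates of a read pair seem to have been counted, so 22 counts may be about 11 fragments.

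By summed RPKM, the D-type cyclins stood at 63.0 ± 2.44 in control and 51.4 ± 1.19 in shtRF (SD, n = 3), and CCND1 made up most of the sum. The share of CCND3 in that sum was 3.77%, 4.09% and 3.95% in control and 6.47%, 6.0% and 5.85% in shtRF. The share of CCND1 was 96.06% ± 0.161 in control and 93.86% ± 0.329 in shtRF. The ratio of CCND1 to CCND3 was 24.4 ± 1.04 in control and 15.4 ± 0.846 in shtRF.

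The E-type cyclins, which activate CDK2 late in G1, showed no change past the threshold. CCNE1 (chromosome 19, 29811898 to 29824308, plus strand) had 8.35, 9.18 and 8.46 CPM in control and 9.18, 8.97 and 8.74 CPM in shtRF. Its log2FC was 0.05 with a 95% interval of -0.14 to 0.24 (adjusted p = 0.708), so a rise of more than 1.18-fold or a fall to less than 0.908 times control lies outside the interval. CCNE2 on chromosome 8 had 45.2, 46.0 and 57.1 CPM in control and 46.8, 50.5 and 50.7 CPM in shtRF. The highest of these 6 values was control replicate 3. The interval of its log2FC was -0.16 to 0.15 (adjusted p = 0.977), and without control replicate 3 the value was 0.11 (adjusted p = 0.151). INTS8 on the other strand covers 37.0% of the exonic sequence of CCNE2 and was at 41.2 ± 3.17 CPM in control and 42.7 ± 0.938 CPM in shtRF. Whether reads in the shared sequence were kept apart by strand is not given, and the part of INTS8 in the CCNE2 counts was not tested. CCNE1 made up 23.4% ± 2.73 of the summed E-type cyclin RPKM in control and 23.9% ± 1.26 in shtRF.

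The kinases of the D-type cyclins differed from each other in direction. CDK4 (chromosome 12, 57747727 to 57756013, minus strand) had 149, 155 and 148 CPM in control and 117, 120 and 112 CPM in shtRF. The groups were well apart, and the log2FC was -0.37 ± 0.05 (SE) with an adjusted p of 6.35e-06, a level 0.773 times that of control with an interval of 0.717 to 0.834. TSPAN31 on the other strand covers 43.2% of the exonic sequence of CDK4 and itself fell by 0.31 on the log2 scale (adjusted p = 0.00597). TSPAN31 was counted at 22.6 ± 2.76 CPM in control and 18.2 ± 1.36 CPM in shtRF, and its part in the CDK4 difference was not tested.

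CDK6 (chromosome 7, 92604921 to 92836594, minus strand) showed the widest change of the tested members. It had 2.32, 2.37 and 2.56 CPM in control and 6.42, 5.21 and 6.58 CPM in shtRF; the shtRF libraries were all far above the control libraries, replicate 2 the least so. The log2FC was 1.33 ± 0.13 (SE) with an adjusted p of 5.25e-08, a 2.51-fold rise with an interval of 2.07 to 3.04. No exonic base of CDK6 is shared with another gene of the table. Its raw counts were 151, 179 and 204 in control and 451, 358 and 408 in shtRF. Per kilobase CDK6 remained scarce, at 0.201 RPKM in control and 0.487 RPKM in shtRF.

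CDK4 was the prevailing transcript of the pair in every library. It outnumbered CDK6 by a ratio of RPKM of 249, 253 and 224 in control and 70.7, 89.4 and 65.7 in shtRF. The share of CDK6 in the sum of both was 0.413% ± 0.0276 in control and 1.33% ± 0.203 in shtRF (SD, n = 3), and the sum itself was 48.6 ± 1.53 and 36.6 ± 1.47 RPKM.

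**Figure D2:**
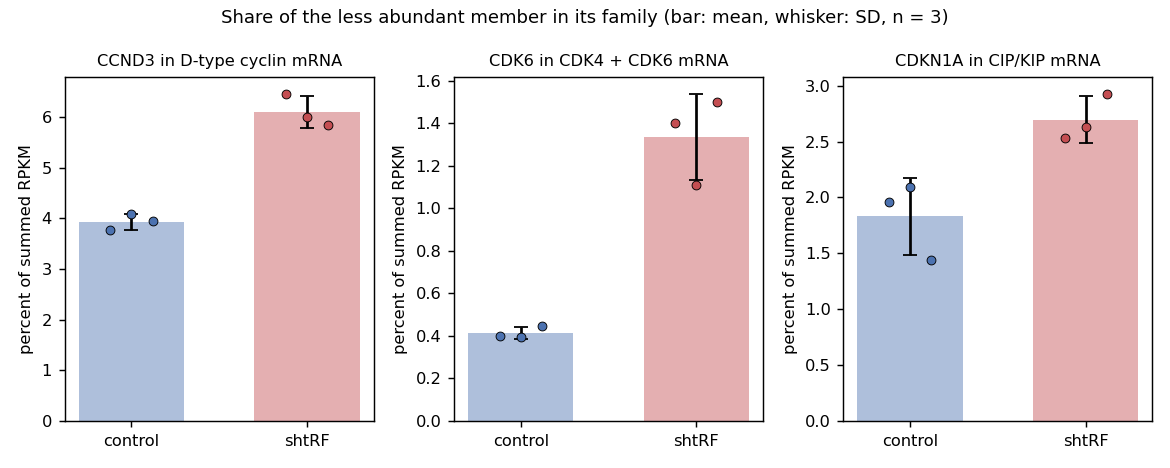
Share of CCND3 among D-type cyclins, of CDK6 with CDK4, and of CDKN1A among CIP/KIP inhibitors, in percent of the summed RPKM of the family. Not drawn are CCND2 and CDKN1C, the least abundant of their families, and the E-type cyclins. In control and shtRF the mean share was 0% and 0.0291% for CCND2, 0.129% and 0.00765% for CDKN1C, and 23.4% and 23.9% for CCNE1. Points are libraries, bars are means and whiskers are SD (n = 3), and in each panel all shtRF libraries lie above all control libraries.

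p21, which p53 induces after DNA damage, was low in these cells. CDKN1A (chromosome 6, 36676460 to 36687339, plus strand) had 3.09, 3.39 and 2.10 CPM in control and 3.76, 3.93 and 4.13 CPM in shtRF. The groups did not overlap, though the spread within control was the widest of the tested members, with a coefficient of variation of 23.5%. The log2FC was 0.46 ± 0.16 (SE) with an adjusted p of 0.0247, a 1.38-fold rise with an interval of 1.10 to 1.74. The call was lost without any of 3 libraries. Without control replicate 3, the lowest value, the log2FC was 0.28 (adjusted p = 0.146), without shtRF replicate 2 it was 0.47 (adjusted p = 0.058), and without shtRF replicate 3 it was 0.43 (adjusted p = 0.0812). The range of adjusted p over 18 alternatives was 0.0107 to 0.146, and 12 of them passed.

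p27 was the prevailing inhibitor of the family. CDKN1B (chromosome 12, 12715058 to 12722371, plus strand) had 142, 146 and 133 CPM in control and 133, 134 and 126 CPM in shtRF. The groups overlapped, as control replicate 3 lay among the shtRF libraries. Its log2FC was -0.10 with an interval of -0.21 to 0.02 (adjusted p = 0.168). With library totals in place of scaling factors it was -0.15 and passed (adjusted p = 0.0299).

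p57 is an imprinted gene with few reads here. CDKN1C (chromosome 11, 2883213 to 2885881, minus strand) had 18, 6 and 12 counts in control and 0, 2 and 0 counts in shtRF. The groups did not overlap. The ratio of control to shtRF over the summed counts, scaled to library size, was 16.4 with an exact 95% interval of 4.22 to 141, and with counts halved the interval was 2.59 to 684. A fit without the low-count filter gave an adjusted p of 0.00594. Without shtRF replicate 1 the ratio was 10.7. With shtRF replicate 2 left out, shtRF held 0 counts, and CDKN1C was at least 7.20-fold higher in control against a floor of 3 counts over the group. That bound takes the control counts as exact.

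Among CIP/KIP transcripts, CDKN1B accounted for 98.04% ± 0.345 of the summed RPKM in control and 97.3% ± 0.207 in shtRF. The share of CDKN1A was 1.96%, 2.09% and 1.44% in control and 2.53%, 2.63% and 2.93% in shtRF. The ratio of CDKN1B to CDK4 by RPKM was 1.07, 1.07 and 1.01 in control and 1.28, 1.26 and 1.27 in shtRF. The ratio of CCND1 to CDK4 lay at 1.25 ± 0.023 and 1.34 ± 0.0764, with libraries at 1.22 to 1.27 in control and 1.29 to 1.43 in shtRF.

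**Figure D3:**
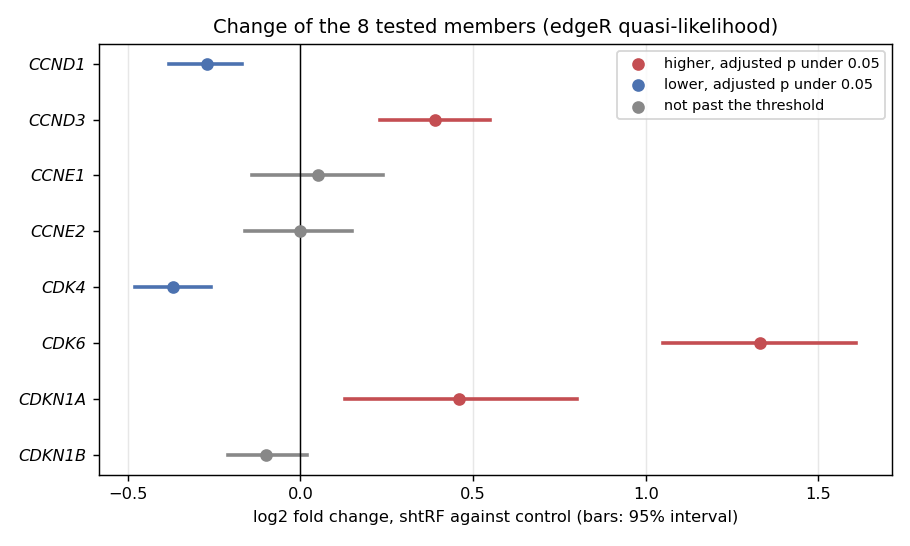
Log2 fold change of the 8 tested members in shtRF against control, with the 95% interval as a bar. CDK6 lies at 1.33, CDKN1A and CCND3 lie above 0, CCND1 and CDK4 lie below 0, and the intervals of CCNE1, CCNE2 and CDKN1B include 0.

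Ordered by RPKM in control, the members ran from CCND1 (60.5) through CDKN1B (50.9), CDK4 (48.4), CCNE2 (11.4), CCNE1 (3.46), CCND3 (2.48), CDKN1A (0.956) and CDK6 (0.201) to CDKN1C (0.0664), with CCND2 at 0. CDKN1B and CDK4 were neighbours whose values differed by less than their spread in control (SD 2.87 and 1.54). In shtRF the means were 48.2 for CCND1, 45.8 for CDKN1B and 36.1 for CDK4, and the order of the 8 tested members was the same. There the neighbours CCND1 and CDKN1B (SD 1.10 and 2.07), and CCNE1 at 3.45 and CCND3 at 3.14 (SD 0.155 and 0.194), lay within the sum of their SDs of each other.

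The other regulators of the same step were examined with fixed lists, which were chosen with earlier results of these data known. Over all tested genes, 20.6% passed as higher and 18.9% as lower, and each list count is to be read beside these shares. INK4 inhibitors bind CDK4 and CDK6 directly. Of the 4 INK4 genes, 2 rose, 1 fell and CDKN2B did not pass. CDKN2D, which encodes p19, rose from 13.4 ± 0.649 to 19.8 ± 1.14 CPM (adjusted p = 4.28e-06, log2FC 0.56). CDKN2A, which encodes p16 and ARF, fell by 0.34 (adjusted p = 0.0152), but not past the threshold without control replicate 2 (0.0809) or without shtRF replicate 2 (0.0918). CDKN2C rose by 0.19 (adjusted p = 0.0355), a call that 10 of 18 alternatives did not share, among them each fit without 1 library except shtRF replicate 3, with adjusted p-values from 0.0644 to 0.182 in those fits.

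The pocket proteins are the substrates of these kinases. All 3 were lower in shtRF by small amounts, and the values that follow are on the log2 scale, as they are wherever a size of change has no unit. RB1 fell by 0.19 (adjusted p = 0.0312), RBL1 by 0.22 (0.0104) and RBL2 by 0.24 (0.00549). RB1 was not past the threshold without control replicate 2 (-0.13, adjusted p = 0.179), shtRF replicate 1 (0.126) or shtRF replicate 2 (0.0921), and RBL2 was not past it without shtRF replicate 2 (0.0528). Other genes cover 18.2% of the exonic sequence of RBL2.

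Of 10 E2F and DP genes, 5 fell (50%, against 18.9% of all tested genes), 1 rose (10%, against 20.6%) and 4 did not pass. E2F8, a repressor among the E2Fs, fell from 18.9 ± 1.01 to 10.7 ± 0.893 CPM (adjusted p = 5.21e-08, log2FC -0.82), and E2F7, the other repressor of its kind, fell by 0.51. E2F2 fell by 0.57 and E2F5 by 0.56. Other genes cover 18.6% of the exonic sequence of E2F5. E2F1 was the gene that rose, by 0.17 (adjusted p = 0.0265), and TFDP1 the other that fell, by 0.33, both named after their values were seen. The call of E2F1 was lost in 10 of 18 alternatives, among them the fits without control replicate 1 (adjusted p = 0.058), control replicate 2 (0.148), shtRF replicate 1 (0.0947), shtRF replicate 2 (0.0504) and shtRF replicate 3 (0.0721).

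None of the 5 genes for CDK2, CDC25A and the CDK-activating kinase passed with edgeR's quasi-likelihood test, 0 did at an unadjusted p under 0.05, and 0 did with DESeq2 or edgeR's exact test. CDK2, the partner of the E-type cyclins, had 90.5, 75.5 and 92.6 CPM in control and 93.1, 93.2 and 94.0 CPM in shtRF (adjusted p = 0.161, log2FC 0.12). Control replicate 2 was the low value. Other genes cover 16.8% of the exonic sequence of CDK2. Without control replicate 3, CDK2 passed at 0.17 (adjusted p = 0.0398) and so did CDK7, the catalytic subunit of the CDK-activating kinase, at 0.24 (0.011), which was named after its value was seen.

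Ubiquitin ligases set the turnover of G1 cyclins and of p27. Of 11 such genes, 5 fell with edgeR's quasi-likelihood test, or 45.5% where 18.9% of all tested genes were lower. None rose with that test, and 0 rose at an unadjusted p under 0.05, with DESeq2 or with the exact test. SKP2, the F-box protein that marks p27 for degradation, fell from 13 ± 1.25 to 9.36 ± 0.28 CPM (adjusted p = 0.000182, log2FC -0.48), and its cofactor CKS1B fell by 0.32. CUL1 fell by 0.33 and RBX1 by 0.21. Other genes cover 10.9% of the exonic sequence of CUL1. RBX1 was not past the threshold without control replicate 2 (0.11), control replicate 3 (0.0798), shtRF replicate 1 (0.0999) or shtRF replicate 3 (0.0885). CUL4A was the fifth, at -0.19, named after its value was seen.

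**Figure D4:**
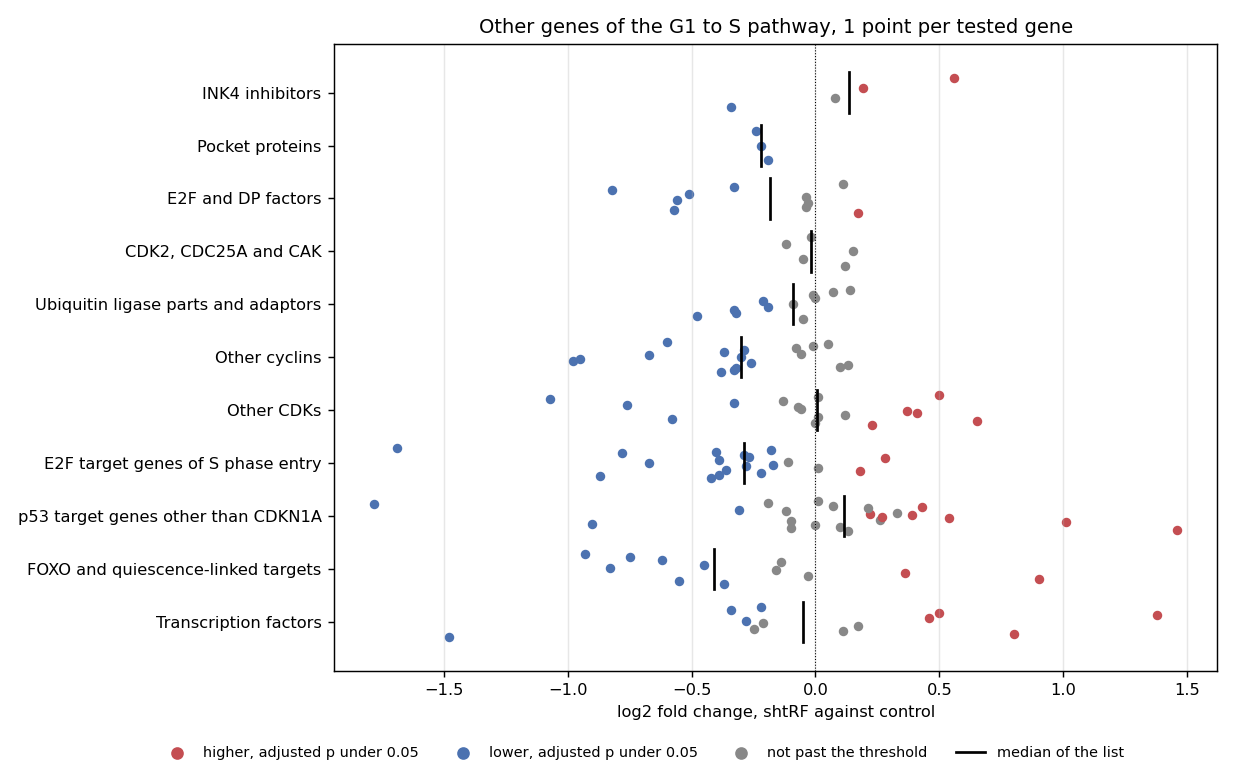
Log2 fold change in shtRF against control of each tested gene in 11 fixed lists around the G1 to S step, coloured by direction where the adjusted p was under 0.05, with the list median as a line. The median was -0.29 for E2F target genes, -0.30 for other cyclins, -0.22 for pocket proteins and 0.11 for p53 target genes.

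E2F target genes carry out DNA synthesis. Of 19 tested, 15 fell, 2 rose and 2 did not pass, with a median log2FC of -0.29, that is 78.9% lower where 18.9% of all tested genes were lower. The median over all tested genes was -0.00251. The study had already reported E2F targets as lower after the knockdown, so this share is a description and not separate support. CDCA7 fell from 47.0 ± 0.813 to 14.5 ± 0.505 CPM (adjusted p = 6.10e-15, log2FC -1.69). CDT1, which licenses origins, fell by 0.87, ORC1, a subunit of the origin recognition complex, by 0.67, and DUT, which keeps uracil out of DNA, by 0.78. Other genes cover 14.5% of the exonic sequence of DUT. The genes that rose were SLBP at 0.28 and RRM2 at 0.18, named after their values were seen. RRM2 was not past the threshold without control replicate 1 (adjusted p = 0.0879), control replicate 2 (0.0577) or shtRF replicate 2 (0.0701).

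Of 17 tested cyclins outside G1, 11 fell, or 64.7% where 18.9% of all tested genes were lower, and none rose with edgeR's quasi-likelihood test, DESeq2 or the exact test, while 1 was higher at an unadjusted p under 0.05. Without control replicate 3, CCNC, the cyclin of the Mediator kinases, passed at 0.18 (adjusted p = 0.0182) and was named after its value was seen. The median was -0.30. CCNG2, a cyclin linked to cell cycle exit, fell from 210 ± 29.2 to 109 ± 6.16 CPM (adjusted p = 1.26e-09, log2FC -0.95), and CCNG1, a p53 target, fell by 0.98. CCNY fell by 0.60 and CCNJ by 0.67. CDKs outside G1 went both ways, with 5 of 16 higher (31.2%) and 4 lower (25%), against 20.6% and 18.9% of all tested genes. CDK5, a kinase best known from neurons, rose by 0.65, CDK18 fell by 1.07, CDK14 by 0.76 and CDK8, a kinase of the Mediator complex, by 0.58. SLC4A2 on the other strand covers 11.3% of the exonic sequence of CDK5 and was at 213 CPM in control and 232 CPM in shtRF, far above CDK5 at 8.41 and 13.2 CPM, and its part in the CDK5 difference was not tested. CDK14 was not past the threshold without control replicate 1 (-0.53, adjusted p = 0.0515). The other genes that rose were CDK1, CDK20, CDK11A and CDK11B, named after their values were seen, and the last pair are near-identical copies between which reads could be split. CDK1 was not past the threshold without control replicate 2 (adjusted p = 0.186) or shtRF replicate 1 (0.129), nor CDK20 without control replicate 1 (0.103), shtRF replicate 2 (0.105) or shtRF replicate 3 (0.102).

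Factors known to act on the members were set beside them. MYC, which activates CDK4 and CCND2 and represses CDKN1A, had 20.8, 21.8 and 20.5 CPM in control and 7.76, 7.18 and 7.72 CPM in shtRF (adjusted p = 2.51e-12, log2FC -1.48). KLF4, an activator of CDKN1A, rose from 4.24 ± 0.618 to 11.1 ± 1.02 CPM (1.38, adjusted p = 2.38e-09). MXI1, an antagonist of MYC, rose by 0.80, and SMAD3, which carries TGF-beta signals, rose by 0.50. SP1, known to bind the GC box, fell from 123 ± 6.12 to 97.3 ± 1.47 CPM (-0.34, adjusted p = 2.63e-05), and was named after its value was seen. Of the 12 factors, 4 rose, 4 fell and 4 did not pass. That is 33.3% higher and 33.3% lower, against 20.6% and 18.9% of all tested genes. Whether any of these factors had a part in the changes of the members was not tested.

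p53 target genes other than CDKN1A did not move as one. Of 22 tested, 7 rose, 3 fell and 12 did not pass, that is 31.8% higher and 13.6% lower against 20.6% and 18.9% of all tested genes. CCNG1, also a p53 target, was counted with the cyclins above and not here. GDF15, a stress-induced cytokine, rose from 1.16 ± 0.163 to 3.22 ± 0.543 CPM (adjusted p = 1.33e-06, log2FC 1.46), ZMAT3 by 1.01 and RRM2B by 0.54. SESN2 fell by 0.90, but its control libraries stood at 37.8, 36.3 and 16.1 CPM and its shtRF libraries between 14.8 and 17.5 CPM, so control replicate 3 lay among the shtRF libraries. Without that replicate the log2FC of SESN2 was -1.21 (adjusted p = 1.05e-11), and with limma its call was lost at a pseudocount of 1 RPKM (adjusted p = 0.0741) or 0.1 RPKM (adjusted p = 0.066).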

How the data were processed

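Stranded mRNA libraries of 6 samples were sequenced as read pairs. The authors deposited raw read counts per gene on GRCh38. The submitters' processing notes name Trimmomatic 0.36, featureCounts and Subread 1.5.1 and edgeR 3.12.1, and the aligner and the strand setting are not given in the sources used here. RPKM values were deposited too. In the part used here (4997 genes, 5 of the members) they equalled the count over gene length and library total within 0.1%, so RPKM was recomputed for all genes. Even values made up 74.2% to 77.1% of all counts from 1 to 4 in a library, as when both mates are counted.

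All 6 libraries were fitted with edgeR 4.0.16 in R 4.3.3: filterByExpr (minimum count 10), TMM scaling and the quasi-likelihood test with group as the only term, with Benjamini-Hochberg adjustment over 19628 genes. CPM values carry TMM factors. SE was obtained from the fold change and F statistic, and intervals are 95%. Intervals of count ratios cover counting error only. Floors of 3 counts cover it only in the group that held no counts, and the counts of the other group are taken as exact. Alternatives used other scaling, filters, DESeq2 1.42.0, the exact test, limma 3.58.1 on log2(RPKM + 1) and log2(RPKM + 0.1), halved counts, a replicate block and each library left out.

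Named genes were all members and, from each other list, up to 4 called genes with the widest change and a mean of at least 2 CPM, plus the pocket proteins, CDK2 and MYC. Genes sharing at least 10% of a member's exonic bases were named with it. Members and lists were chosen with earlier results of these data known. Coordinates are those of the count table, and 98.4% of 25660 symbols found once in GENCODE 29 lay at the same GRCh38 locus.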

Additional observations from a re-analysis of the deposited data

How the results depend on the processing

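CCND1, CCND3, CDK4 and CDK6 kept their direction and passed in all 18 alternatives, and CCNE1 and CCNE2 passed in none. The size of the CDK6 change depended on the scale, at 0.31 on log2(RPKM + 1) and between 0.96 and 1.43 otherwise, because a pseudocount compresses scarce genes. CDKN1A lost its call with no scaling factor (0.41), on log2(RPKM + 1) (0.22) and on log2(RPKM + 0.1) (0.40), and ranged from 0.28 to 0.60 in the fits without 1 library, 3 of which did not pass. CDKN1B passed only with no scaling factor (-0.15). With no scaling factor the median log2 fold change over all tested genes was lower too, at -0.055 in place of -0.003. No other cause was tested. Members called higher numbered 2 or 3 and members called lower 2 in each fit without 1 library.

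Pathway genes called higher, 3 in the reported fit, numbered 1 under upper quartile scaling, no scaling factor, no filter beyond 1 count and both RPKM scales, and 1 to 4 without 1 library. Other cyclins and CDKs called higher numbered 3 in place of 5 on both RPKM scales. All other pooled counts of list genes stayed within 1.5 times. On raw counts in place of RPKM, which ignores gene length, the shift in share was -2.59 percentage points for CCND1, 2.55 for CCND3, 0.0426 for CCND2 and -3.39 for CDK4, in place of -2.20, 2.17, 0.0291 and -0.921, with the same signs.

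Of 810 alternative values of 45 other named genes, 778 kept their call, 31 lost it and 1 gained it. The replicate number did not pair the libraries, since same-numbered libraries deviated from their group means with correlations of 0.06, 0.02 and 0.02. With the replicate block in the model, the log2 fold change was -0.27 for CCND1, 0.39 for CCND3, -0.37 for CDK4, 1.32 for CDK6 and 0.48 for CDKN1A, and it changed no call of a member. Over all genes the block gave 4123 higher and 3776 lower calls in place of 4046 and 3704. CDKN1C passed the low-count filter in 4 of the fits without 1 library, but only through its control counts, the group where it was high. The p-values of those fits are therefore not separate support and are not given. In the fit without shtRF replicate 2, shtRF held 0 counts and the fitted fold is not given. Low counts limit the statements on CCND2 and CDKN1C.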

Other observations

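FOXO factors link low growth signalling to quiescence and also act on CDKN1B. Of 12 tested genes in a list of FOXO and quiescence-linked targets, 7 fell (58.3%, against 18.9% of all tested genes), 2 rose (16.7%, against 20.6%) and 3 did not pass, with a median log2 fold change of -0.41 against -0.00251 over all tested genes. BNIP3, a mitophagy receptor, fell from 56.1 ± 3.64 to 29.5 ± 1.56 CPM (SD, n = 3; log2 fold change -0.93, adjusted p = 1.05e-10). FBXO32, a ubiquitin ligase subunit of muscle wasting, fell by 0.75 and GADD45B, a stress sensor, by 0.83. KLF2, a factor of quiescent cells, rose from 4.35 ± 0.946 to 8.09 ± 0.073 CPM (0.90, adjusted p = 7.90e-06).

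Some libraries lay farther from their group than others. Control replicate 3 held the lowest control value of CDKN1A (2.10 CPM), CDKN1B (133 CPM), CCNG2 (180 CPM) and SESN2 (16.1 CPM), and the highest of CCNE2 (57.1 CPM), CDC25A (25.6 CPM) and CCNB1 (98.4 CPM). Among 131 tested genes of the other lists it was the control library farthest from the group median in 59, or 45%, compared with 36% of all 19628 tested genes. Among the 8 tested members it was the farthest in 4, and shtRF replicate 3 was the farthest shtRF library in 5. Over all tested genes, shtRF replicate 3 was the farthest of its group in 30.7% and shtRF replicate 1 in 37.2%. CDC25A and CCNB1 were chosen after their values were seen, and no cause was tested.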
